A study of Sus scrofa with 12 samples.

Results

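The genes described here are 9 enzymes and transport proteins of glycolysis in the piglet jejunum, taken from a fixed list of 10 (HK2, ALDOA, TPI1, PGK1, PGAM1, ENO1, PKM, LDHA, LDHB and MPC2). They were found by gene name in a table of 41264 loci with 17049 different gene names, and rows that share a name were summed. ALDOA has no row of that name and is not described. The other 9 names cover 11 loci, because HK2 and MPC2 have 2 loci each. All 9 passed the filter on low values, a mean of at least 0.5 FPKM, in each comparison. FPKM is fragments per kilobase of transcript scaled to the mapped fragments of the library, so it allows levels to be compared between genes of different length.

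Poly(A) RNA of jejunum was sequenced from 12 piglets in 4 groups of 3. The groups named W_Con and PW_Con were 21 and 28 days old and came from sows on a basal corn and soybean meal diet. The groups named W_Res and PW_Res had the same ages and came from sows whose basal diet held 300 mg/kg resveratrol, a plant polyphenol, from 20 days after breeding until the end of lactation. All litters were sired with pooled semen of Landrace boars and cross-fostered within the maternal diet. They were weaned at 21 days, so that the 28-day piglets were 7 days past weaning and had also aged by a week. Age and weaning cannot be told apart in this design. The paper that used the control libraries describes other breeds and a move to a nursery, whereas the public records state that piglets stayed in their pens. Its methods, which cover the control groups, took a single male per litter at each age. For the resveratrol groups the records do not say whether piglets shared a litter, so p-values there measure the spread between these animals.

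Glycolysis splits glucose into pyruvate in the cytosol and yields ATP without oxygen. Hexokinases trap glucose, the middle enzymes handle triose phosphates, and phosphoglycerate kinase and pyruvate kinase make the ATP. Pyruvate then becomes lactate through lactate dehydrogenase, or enters mitochondria through the mitochondrial pyruvate carrier. In the small intestine, dividing crypt cells are known for strong glycolysis, while mature villus cells draw much of their energy from glutamine and fatty acids.

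LDHA was also measured by qRT-PCR in the study, relative to GAPDH, which is itself a glycolytic enzyme. The paper reported that this ratio of LDHA to GAPDH was significantly lower in weaned than in sucking piglets. The primers are shown because that ratio can be rebuilt from the sequencing table, as is done further on. They are given 5′ to 3′ and no part is set in capitals.
LDHA forward: tgcttgttgcttccaatccagtgg
LDHA reverse: aggcacactagagtctccatgctc
GAPDH forward: atggtgaaggtcggagtgaa
GAPDH reverse: ccgtgggtggaatcatactg

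The libraries differed in ways that the groups did not fully explain. The summed FPKM was 313171 to 334469 per library, and the 9 members held 0.348% to 0.711% of the FPKM of named genes. Read counts were not used here, so the depth behind a gene is unknown. The villus marker list was present in each library (6 of 8 genes in the table, ALPI and LCT absent), with sums of 932 to 4137 FPKM. The 7 smooth muscle genes in the table (MYH11 absent) summed to 657 to 3918 FPKM in W_Res and to 151 to 635 FPKM in the other 3 groups. All 7 were lower at 28 days at the study's standard in resveratrol litters, against 4.75% of all genes tested. None met it in control litters, against 3.31%. The 8 crypt and cell division genes, all in the table, summed to 470.1 to 951 FPKM in W_Con, 373 to 1395 FPKM in PW_Con, 411 to 1411 FPKM in W_Res and 251 to 1287 FPKM in PW_Res. The 4 distal small intestine genes in the table summed to 53.7 FPKM in 1 library and 24519 FPKM in another. Their sum was 6741 to 9961 FPKM in PW_Con and 73.0 to 8265 FPKM in W_Con. W_Res replicate 2 and W_Res replicate 3 had the highest median FPKM over loci, 1.12 and 0.836, against 0.238 to 0.479 in the other 10 libraries. The 3 red blood cell genes in the table (HBA1 and AHSP absent) summed to 79.7 to 131 FPKM in W_Res and 6.77 to 15.3 FPKM in PW_Res, and to 30.9 to 74.3 FPKM in W_Con and 0.662 to 48.3 FPKM in PW_Con. HBB, the beta chain of haemoglobin, fell by 3.11 on the log2 scale in resveratrol litters (limma adjusted p = 0.0785). The part of these differences in the results was not tested. In whole tissue, fewer cells of a type and less RNA per cell cannot be told apart.

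ENO1 (enolase 1, which forms phosphoenolpyruvate) had the highest level of the 9 genes, with a mean of 407 FPKM over the 12 libraries. LDHA, the muscle-type subunit of lactate dehydrogenase, followed at 284 FPKM. TPI1 (triosephosphate isomerase) and PKM (pyruvate kinase M) stood at 241 FPKM each. PGAM1 (phosphoglycerate mutase 1) had a mean of 211 FPKM and PGK1 (phosphoglycerate kinase 1) of 112 FPKM. MPC2, a subunit of the mitochondrial pyruvate carrier, reached 36.0 FPKM, the row named LDHB 14.4 FPKM, and HK2 (hexokinase 2) 6.35 FPKM. LDHB is the symbol of the heart-type subunit of lactate dehydrogenase, and which gene that row measures is taken up further on. PGAM1 exceeded PGK1, and PGK1 exceeded MPC2, in 12 of 12 libraries, while MPC2 exceeded LDHB, and LDHB exceeded HK2, in 11. The order was less fixed above them, since PKM exceeded PGAM1 in 10 of 12 libraries, ENO1 exceeded LDHA in 9 of 12 libraries, LDHA exceeded TPI1 in 6, and TPI1 exceeded PKM in 5. TPI1 varied least over the libraries, with a coefficient of variation of 25.3%, and MPC2 varied most, with 50.3%.

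**Figure D1:**
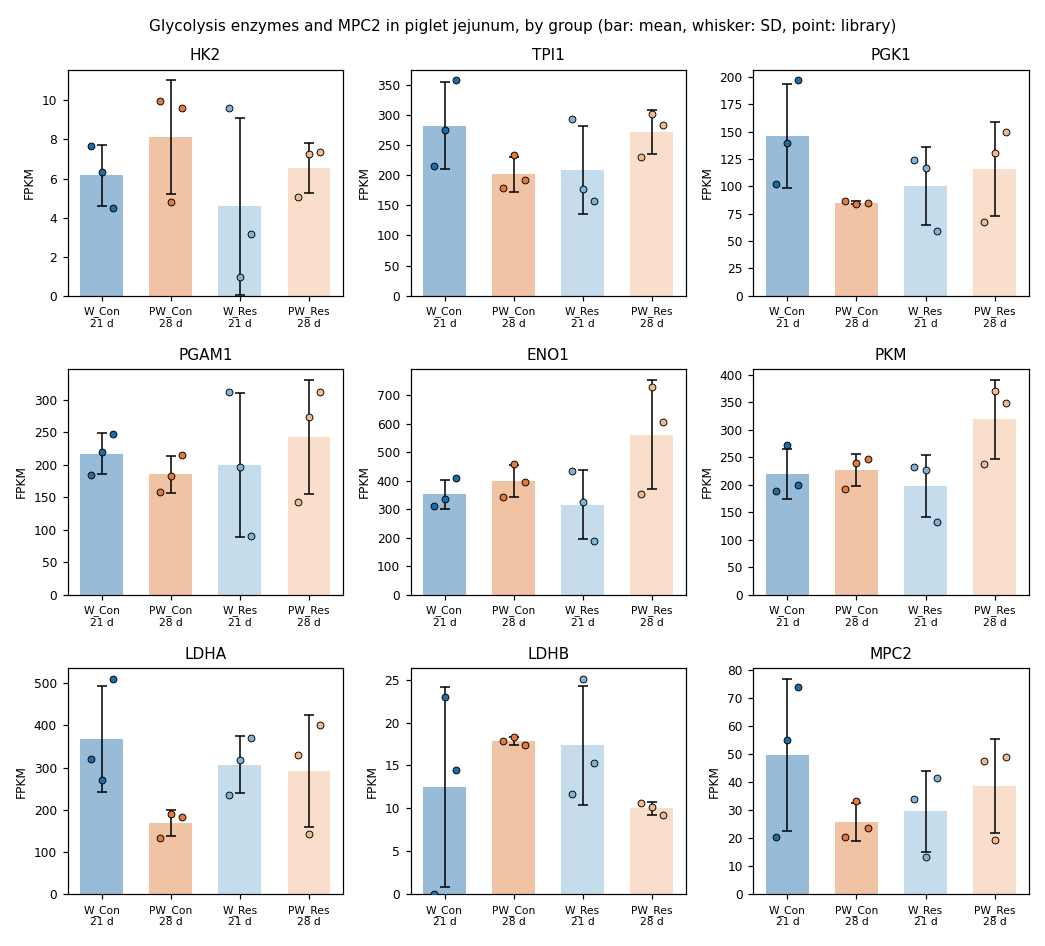
FPKM of the 9 genes (y axis, from 0, a scale per gene) in the 4 groups (x axis), where points are libraries, bars are group means and whiskers are the SD of 3 libraries. The 3 PW_Con points of LDHA, at 133 to 189.9 FPKM, lie below the lowest W_Con point at 271 FPKM, and the PW_Res points of LDHA spread from 144 to 402 FPKM.

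The first question was which of these genes differed after weaning in litters of control sows. LDHA was the gene that met the study's standard, an unadjusted P under 0.05 with a log2 fold change beyond 1 in either direction. Its FPKM was 321, 271 and 510.5 in W_Con and 133, 189.9 and 182 in PW_Con. The groups did not overlap, and the means were 367 ± 126 and 168 ± 30.7 FPKM (SD, n = 3 each). LDHA fell by 1.09 on the log2(FPKM + 1) scale (standard error, SE, 0.27, limma adjusted p = 0.143), a ratio of means of 0.458. Its adjusted p stayed above 0.05, and lay between 0.125 and 0.294 over the alternatives. Without W_Con replicate 3, which had the highest LDHA level, the fold change was -0.82, and without PW_Con replicate 1, the lowest, it was -0.93, so that the standard was not met in either case.

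PGK1 showed the second non-overlapping pair of groups in control litters. It had 102, 139 and 197 FPKM in W_Con and 86.5, 83.7 and 84.3 FPKM in PW_Con. The 28-day piglets lay within a narrow band below each 21-day piglet, with means of 84.8 ± 1.45 and 146 ± 47.7 FPKM. PGK1 had an unadjusted P under 0.05, which was lost with all 12 libraries in the fit and kept in 16 of 17 alternatives. Its log2 fold change was -0.73 (SE 0.24, limma adjusted p = 0.204), which is short of the fold that the standard asks for. Without W_Con replicate 3 it was -0.49 and without W_Con replicate 1 it was -0.96, while the Ballgown model gave -1.13, which met the standard.

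The remaining enzymes of the lower pathway did not reach an unadjusted P under 0.05 in control litters in limma. TPI1 was 215, 275 and 357 FPKM in W_Con and 178, 233 and 192 FPKM in PW_Con, with a log2 fold change of -0.46 (95% interval -1.0 to 0.07). TPI1 did reach an unadjusted P under 0.05 without W_Con replicate 1, at -0.65, and in the Ballgown model, at -0.85. PGAM1, which moves the phosphate of phosphoglycerate, was 184, 219.7 and 247 FPKM against 158, 183 and 215 FPKM. Its log2 fold change was -0.23, with an interval of -0.68 to 0.23. For these enzymes, the groups overlapped and the highest library was at 21 days. ENO1 was 312, 338 and 409 FPKM against 343, 457 and 397 FPKM, with a log2 fold change of 0.18 (interval -0.28 to 0.63). PKM, which makes pyruvate, was 188, 272 and 200.3 FPKM against 193, 239.8 and 247 FPKM, with a log2 fold change of 0.05 (interval -0.43 to 0.53). PKM and ENO1 therefore had intervals around 0 that do not reach a change of 1.

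The 3 genes with the lowest levels were also the least precise. MPC2, which carries pyruvate into mitochondria, was 20.5, 55.0 and 74.1 FPKM in W_Con and 20.3, 33.5 and 23.6 FPKM in PW_Con (log2 fold change -0.78, interval -1.84 to 0.29). Its 21-day libraries overlapped the 28-day ones and spread more widely. Without W_Con replicate 1, the low library of its group, MPC2 met the standard at -1.31, whereas it was at -0.40 without W_Con replicate 3. HK2, which starts glycolysis by phosphorylating glucose, was 7.65, 6.32 and 4.50 FPKM against 9.99, 4.78 and 9.60 FPKM (log2 fold change 0.32, interval -0.40 to 1.03). Without PW_Con replicate 2, the low library of its group, HK2 was at 0.62 with an unadjusted P under 0.05, and without W_Con replicate 3 it was at 0.14. LDHB was listed at 0 in W_Con replicate 1 and at 23.0 and 14.5 FPKM in the other two. The PW_Con values of LDHB were 17.8, 18.3 and 17.4 FPKM. Its log2 fold change of 1.39 (SE 1.08) rests on the value of 0 and was -0.03 without that library. An exact 0 in such a table can be a failed estimate.

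In control litters, 1 of 9 members met the standard, against 3.31% of the 12611 genes tested. The groups of 2 members did not overlap, against 25.3% of genes. No member had an adjusted p under 0.05, as for all genes tested (0%), while 2 members had an unadjusted P under 0.05 in limma, against 17.7% of genes. Of the 9 members, 4 had a positive and 5 a negative fold change, and their median was -0.23 on the log2 scale beside -0.02 over all genes. The Ballgown model gave 2 positive and 7 negative, with a median of -0.40. In an exact permutation test of single genes, 3 animals against 3 cannot go below p = 0.1, the value that LDHA and PGK1 each gave. With the linear model of Ballgown and its library-size covariate, 4 members had an unadjusted P under 0.05, against 14.8% of genes. Of these, LDHA, PGK1 and MPC2 met the standard, against 4.1% of genes, and TPI1 did not. The paper had already called LDHA, PGK1 and MPC2 lower after weaning in these same control libraries. The members were chosen with such results known, so their counts in control litters are no independent result. In the same libraries the proximal small intestine list had a median of -1.55 on the log2 scale, with 2 of 5 genes lower at an unadjusted P under 0.05, and the distal list a median of 1.44, with 1 of 4 higher. The sums of the proximal genes overlapped, with 4269 to 16485 FPKM in W_Con and 1577 to 6379.5 FPKM in PW_Con. Of the 7 crypt and cell division genes tested there, none met the standard, and 2 had an unadjusted P under 0.05, both higher at 28 days (MKI67 at 0.52 and MCM2 at 0.63). Of the 8 lymphocyte genes, CD3E (-0.74) and CD3D (-0.63) were lower and CD79B (2.05) was higher at an unadjusted P under 0.05. CD79B was at 37.5 FPKM in PW_Con replicate 2, against 2.25 FPKM in replicate 1 and 3.29 FPKM in replicate 3 of that group. The part of these lists in the result was not tested.

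**Figure D2:**
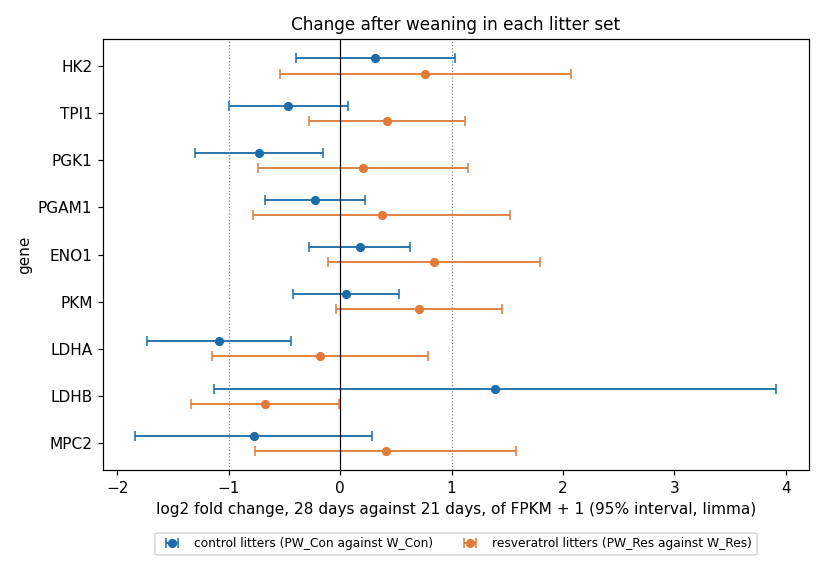
Log2 fold change of FPKM + 1 between 28 and 21 days (x axis) for each gene (y axis), with 95% intervals from limma, in control litters and in resveratrol litters (colours), and dotted lines at -1 and 1. In control litters the intervals of LDHA (-1.73 to -0.44) and PGK1 (-1.30 to -0.15) lie below 0, while in resveratrol litters only that of LDHB does (-1.34 to -0.01).

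The same comparison was made in litters of resveratrol-fed sows. No member met the standard, against 4.75% of the 13013 genes tested, and 1 member, LDHB, had an unadjusted P under 0.05 in limma, against 13.3% of genes. PKM was 232, 227 and 133 FPKM in W_Res and 237, 371 and 349 FPKM in PW_Res. Each 28-day piglet was above each 21-day piglet, although the lowest PW_Res value was close to the highest W_Res value. The log2 fold change of PKM was 0.71 (SE 0.32, limma adjusted p = 0.390). ENO1 was 432, 327 and 189 FPKM against 352, 729.9 and 604 FPKM, which overlap, with a log2 fold change of 0.84 (interval -0.11 to 1.79). ENO1 passed the standard after median-of-ratios rescaling between libraries, with 1.07, and was at -0.03 in the Ballgown model.

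LDHB had 11.7, 25.1 and 15.3 FPKM in W_Res and 10.6, 10.1 and 9.21 FPKM in PW_Res. The groups did not overlap. Its log2 fold change was -0.68 (SE 0.29, limma adjusted p = 0.371). An unadjusted P under 0.05 was kept in 4 of 17 alternatives and lost, among others, with no filter on low values, after median-of-ratios rescaling (-0.46) and without W_Res replicate 2 (-0.39), and the Ballgown model turned the value to 0.33. LDHA, in contrast to control litters, overlapped widely, with 234, 318 and 369 FPKM in W_Res and 329, 144 and 402 FPKM in PW_Res. The log2 fold change of LDHA was -0.18 (interval -1.15 to 0.79), and it was 0.05 after median-of-ratios rescaling. The interval includes the change that control litters showed.

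The other members overlapped between the ages in resveratrol litters. PGAM1 was 312, 196 and 91.1 FPKM against 143, 274 and 311 FPKM, and its log2 fold change was 0.37. PGK1 was 124, 117 and 58.8 FPKM against 67.5, 130.3 and 149 FPKM, and its log2 fold change was 0.20. In both genes W_Res replicate 3 and PW_Res replicate 1 were the low libraries of their groups. TPI1 was 293, 177 and 158 FPKM against 231, 301 and 284 FPKM, and its log2 fold change was 0.42. HK2 was 9.64, 0.940 and 3.14 FPKM against 5.08, 7.24 and 7.35 FPKM, and its log2 fold change was 0.76. MPC2 was 34.0, 13.2 and 41.5 FPKM against 47.7, 19.3 and 49.0 FPKM, and its log2 fold change was 0.41. The widest of these spreads by fold was that of HK2, from 0.940 FPKM in W_Res replicate 2 to 9.64 FPKM in W_Res replicate 1. The smooth muscle genes summed to 3918 FPKM in the first of these libraries and to 1803 FPKM in the second. In W_Res replicate 3, where HK2 was at 3.14 FPKM, they summed to 657 FPKM. Their part in the HK2 values was not tested.

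Of the 9 members, 7 had a positive fold change in resveratrol litters, and their median was 0.41 on the log2 scale, beside -0.16 over all genes. Groups did not overlap for 2 members (PKM higher, LDHB lower), against 21.8% of genes. No member had an adjusted p under 0.05, against 0.00768% of genes, and the Ballgown model gave 1 member at the standard, HK2, against 1.58% of genes, in the opposite direction from limma (-1.72 against 0.76). That model also turned the members' median to -0.41, with 3 positive and 6 negative. Median-of-ratios rescaling moved the median of all genes in this comparison from -0.16 to 0.01 and that of the members to 0.63. Leaving out W_Res replicate 2 and W_Res replicate 3 was a choice made after the data were seen, and it leaves W_Res replicate 1 alone, which is then assumed to vary like the other group. Against that library, ENO1 had a log2 fold change of 0.31 and PGAM1 of -0.44.

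**Figure D3:**
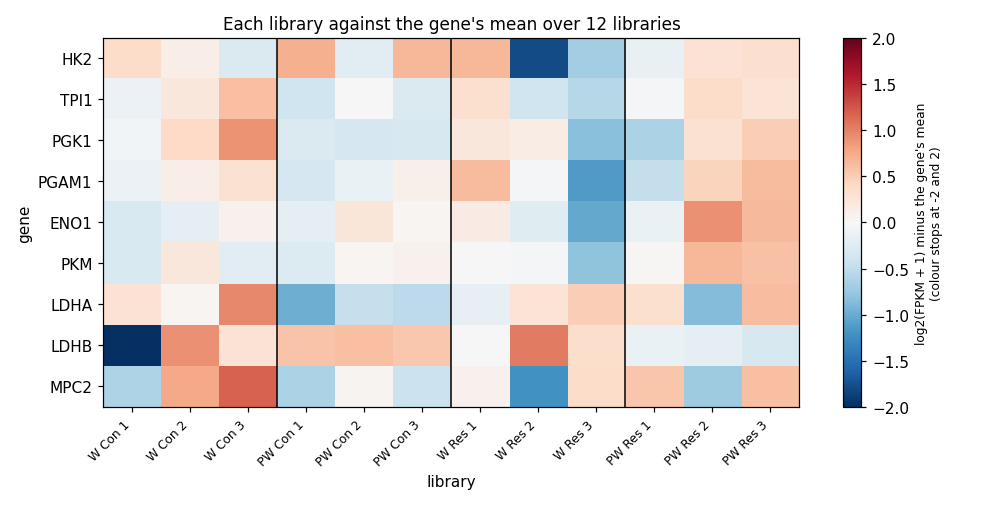
Each gene's log2(FPKM + 1) minus its mean over the 12 libraries (colour, cut at -2 and 2), with genes in rows and libraries in columns, grouped by W_Con, PW_Con, W_Res and PW_Res. W_Res replicate 3 is below the mean in TPI1, PGK1, PGAM1, ENO1 and PKM (189 FPKM of ENO1 against a mean of 407) and above it in LDHA (369 FPKM against a mean of 284).

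Whether the weaning effect differed between the litter sets was tested as an interaction over the 12 libraries, in which it is the effect in resveratrol litters minus that in control litters. No member met the standard, against 7.76% of 12886 genes, and no gene had an adjusted p under 0.05 (0%). TPI1 was the 1 member with an unadjusted P under 0.05, against 13.7% of genes. It differed by 0.89 on the log2 scale (SE 0.38, limma adjusted p = 0.337), from -0.46 in control to 0.42 in resveratrol litters. In the Ballgown model the difference of TPI1 was 0.02 and no member had an unadjusted P under 0.05, against 5% of genes. The difference was 0.91 for LDHA (interval -0.25 to 2.07), 0.93 for PGK1 (interval -0.18 to 2.04) and 1.18 for MPC2 (interval -0.46 to 2.82). It was positive in 8 of 9 members, with LDHB as the exception at -2.07, and the median was 0.67 beside -0.15 over all genes. In the Ballgown model it was positive in 5 of 9 members, with a median of 0.02. A difference in the effect on LDHA between the litter sets was thus not shown. In the same comparison the smooth muscle list had a median of -2.77, with 7 of 7 genes negative and 5 at the standard. The proximal small intestine list had a median of 1.19, with 5 of 5 positive, and the distal list of -0.99, with 4 of 4 negative. Their part in the members' differences was not tested. Among the other listed genes, PFKFB2 and PDK2, an inhibitory kinase of pyruvate dehydrogenase, met the standard for this difference, at -1.17 and -1.08, and each had its highest group mean in W_Res.

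Averaged over both litter sets, no member met the standard, against 1.42% of 12886 genes. LDHA was the 1 member with an unadjusted P under 0.05, against 19% of genes, with a mean log2 fold change of -0.63 (SE 0.27, limma adjusted p = 0.235). The call of LDHA held in 14 of 21 alternatives. ENO1 was next, with 0.51 (SE 0.23, limma adjusted p = 0.266), which did not pass, and it was at -0.03 in the Ballgown model. No member had an adjusted p under 0.05, against 0.0776% of genes, and the Ballgown model also gave none. In that model LDHA was at -0.42 without an unadjusted P under 0.05, and the 1 member that reached it was TPI1, at -0.61, against 7.4% of genes. The other 7 members had mean log2 fold changes between -0.26 (PGK1) and 0.54 (HK2).

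The maternal diets were then compared at each age. At 21 days, no member met the standard, against 4.47% of 13186 genes, and none had an unadjusted P under 0.05 in limma, against 13.3% of genes, or in the Ballgown model, against 4.84%. No member's groups were free of overlap, against 21% of genes, and no gene had an adjusted p under 0.05 (0%). The members' log2 fold changes ran from -0.70 (MPC2) to 1.29 (LDHB, which rests on the library at 0), and 8 of 9 were negative. The Ballgown model gave 3 of 9 negative. In the same comparison 5 of 7 smooth muscle genes were higher in W_Res at the standard, and the median over the 7 was 2.21 on the log2 scale. Of 7 lymphocyte genes tested, 5 were lower and 1 higher at an unadjusted P under 0.05 (3 lower at the standard), and of 6 villus genes 1 was lower. The part of these lists in the members' values was not tested.

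At 28 days, the values of LDHB lay apart between the maternal diets in these animals, as did those of 17.3% of all genes. Its values were 17.8, 18.3 and 17.4 FPKM in PW_Con and 10.6, 10.1 and 9.21 FPKM in PW_Res, which do not overlap. The means were 17.9 ± 0.426 and 9.99 ± 0.727 FPKM (SD, n = 3 each). The log2 fold change of LDHB was -0.78 (SE 0.15, limma adjusted p = 0.315), short of the fold of the standard. It lay between -0.83 and -0.69 over the alternatives, with adjusted p between 0.178 and 0.871. With all 12 libraries in the fit, its unadjusted P was above 0.05. No member met the standard at 28 days, against 1.81% of 12380 genes. The groups of 1 member did not overlap, against 17.3% of genes. No member had an adjusted p under 0.05, against 0.00808% of genes, while 1 member, LDHB, had an unadjusted P under 0.05 in limma, against 10.2% of genes, and in the Ballgown model, against 7.53%. In the same libraries the distal small intestine genes summed to 94.9 and 105 FPKM in PW_Res replicate 2 and PW_Res replicate 3, to 24519 FPKM in PW_Res replicate 1 and to 6741 to 9961 FPKM in PW_Con. The distal list had a median of -1.93 on the log2 scale (1 of 4 lower at an unadjusted P under 0.05), the proximal list of 1.14 (2 of 5 higher) and the lymphocyte list of -0.81 (0 of 8 passed). Their part in the LDHB difference was not tested. The other 8 members had log2 fold changes between -0.23 (HK2) and 0.68 (LDHA).

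The LDHB row needs care. It is 1 locus with 1 transcript, and its identifier lies between those of LPXN and CTNND1. RefSeq for the assembly Sscrofa11.1, which is newer than the build of the table, lists 2 genes with the symbol LDHB. The first of them is on the chromosome of LPXN and CTNND1, and the second is on another one. The position of the identifier points to the first of them, but no sequence was compared and the assemblies differ. The values are those of the row named LDHB, and whether it measures the heart-type subunit was not settled.

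Isoforms of the same reaction were compared within each library. The list held 7 pairs, of which LDHA with LDHB and HK2 with HK1 could be used. The first is a pair of isoforms only if the row named LDHB measures the heart-type subunit. LDHA made up 88.2% to 97.8% of the FPKM of LDHA and LDHB in 11 libraries, and 100% in W_Con replicate 1, where LDHB was listed at 0. The lowest 3 shares, 88.2%, 91.2% and 91.3%, were the PW_Con libraries. The log2 ratio of LDHA to LDHB changed by -0.99 between 21 and 28 days when averaged over both litter sets (exact permutation test within litter sets, two-sided p = 0.325, adjusted p = 0.325 over 2 pairs). The change was -2.48 in control and 0.50 in resveratrol litters, and the first of these includes the library at 0. Without that library the change was -1.12 in control litters and -0.31 on average. HK2 made up 3.32% to 22.6% of the FPKM of HK1 and HK2, so that HK1, the hexokinase found in most tissues, was the more abundant form throughout. Their log2 ratio changed by 0.40 (exact permutation test, two-sided p = 0.315, adjusted p = 0.325). The smallest p that the 400 regroupings allow is 0.005.

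Expressed relative to GAPDH within each library, some members kept one direction in both litter sets. GAPDH, listed as ENSSSCG00000000694, makes the substrate of PGK1. It was 306, 509 and 570.4 FPKM in W_Con, 411, 485 and 468 FPKM in PW_Con, 585, 326 and 216 FPKM in W_Res, and 428, 668 and 712 FPKM in PW_Res. GAPDH thus overlapped between the ages in both litter sets. Its log2 fold change was 0.02 in control litters (interval -0.58 to 0.63) and 0.77 in resveratrol litters (interval -0.20 to 1.73), so the ratios in resveratrol litters carry the difference of GAPDH as well. These ratios were chosen after the values were seen and are given with no test. The log2 ratio of PGK1 to GAPDH was -1.58, -1.86 and -1.53 in W_Con and -2.24, -2.52 and -2.46 in PW_Con. In resveratrol litters it was -2.23, -1.47 and -1.86 at 21 days and -2.65, -2.35 and -2.25 at 28 days. All 6 values at 28 days were below all 6 at 21 days, though the closest were -2.24 and -2.23. In resveratrol litters PGK1 itself had a log2 fold change of 0.20, so the lower ratio there goes with the higher GAPDH. How many other genes separate in this way relative to GAPDH was not counted.

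The mean ratio of LDHA to GAPDH was lower at 28 days in both sets, with larger scatter in resveratrol litters, where LDHA itself had a log2 fold change of -0.18. Its log2 ratio to GAPDH was -0.33 ± 0.51 in W_Con and -1.44 ± 0.15 in PW_Con, and -0.19 ± 1.05 in W_Res and -1.14 ± 0.96 in PW_Res (SD, n = 3 each). The difference was -1.11 in control and -0.94 in resveratrol litters, but in the latter the libraries overlapped, from -1.32 to 0.77 at 21 days and from -2.21 to -0.38 at 28 days. TPI1 relative to GAPDH differed by -0.49 and -0.34, and PGAM1 by -0.25 and -0.39. ENO1 differed by 0.15 and 0.08 and PKM by 0.03 and -0.06. PKM and ENO1 therefore kept their ratio to GAPDH between the ages more closely than LDHA and PGK1 did.

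**Figure D4:**
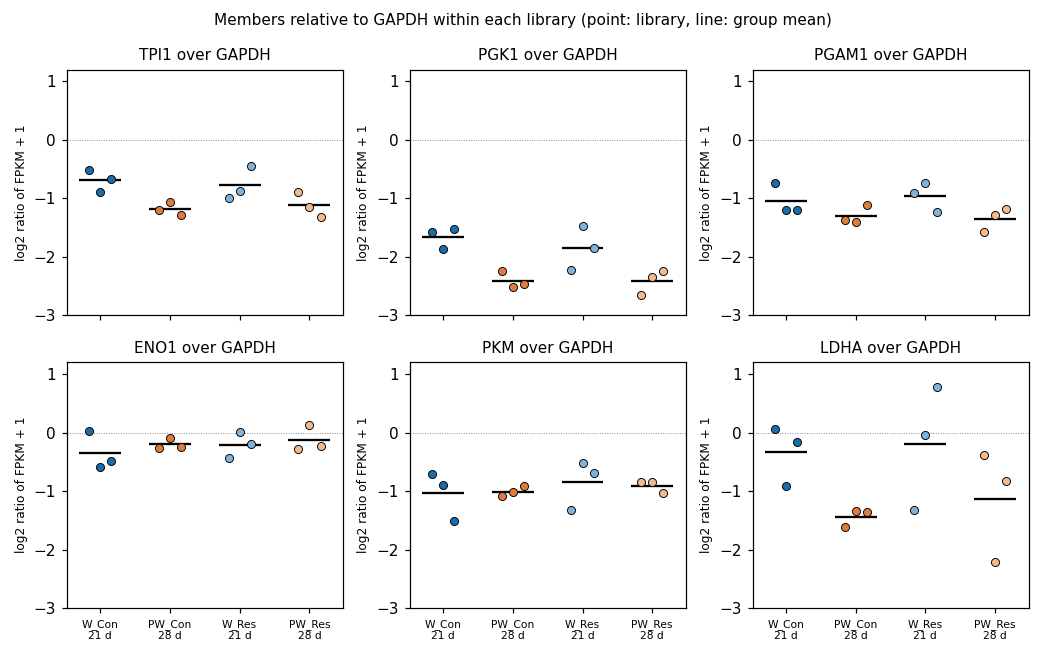
Log2 ratio of each gene's FPKM + 1 to that of GAPDH in the same library (y axis) in the 4 groups (x axis), where points are libraries and lines are group means. For PGK1, the 28-day points lie between -2.65 and -2.24 and the 21-day points between -2.23 and -1.47, while ENO1 and PKM have group means that differ by 0.15 or less between the ages.

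Over the 12 libraries, some of the lower glycolytic enzymes were correlated with each other, and LDHA had no pair that passed. Of 36 pairs of members, 6 had an adjusted permutation p under 0.05 for Pearson's r, and 1 for Spearman's rho (PGK1 with PGAM1). PKM and ENO1 had r = 0.90 (adjusted p = 0.0137, Spearman's rho = 0.73, adjusted p = 0.0706), and r was 0.70 without the 2 libraries farthest from the median of PKM. PGK1 and PGAM1, which catalyse successive steps, had r = 0.82 (adjusted p = 0.0192, rho = 0.84, adjusted p = 0.0468), and r stayed at 0.82 without the 2 libraries farthest from the median of PGK1. PGAM1 and ENO1, also successive, had r = 0.82 (adjusted p = 0.0192, rho = 0.64, adjusted p = 0.154), and 0.73 without the 2 farthest libraries. In the other 3 pairs that passed, r fell in the same way from 0.76 to 0.50 (PKM with PGAM1), from 0.79 to 0.58 (PGK1 with TPI1) and from 0.76 to 0.65 (PGAM1 with TPI1). After the group means were taken out, r was 0.83 (PKM with ENO1), 0.89 (PGK1 with PGAM1) and 0.93 (PGAM1 with ENO1). For the other 3 pairs it was 0.85 (PKM with PGAM1), 0.75 (PGK1 with TPI1) and 0.78 (PGAM1 with TPI1). The highest r of LDHA was 0.58 with MPC2 (adjusted p = 0.192), and with ENO1 it was -0.31. Values of 1 library share its scaling, which the correlations do not remove.

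The genes most like the members were sought among 6293 genes outside the list with a mean of at least 5 FPKM. Likeness was Pearson's r over the 12 libraries with the mean z-score of the 9 members. The highest were PIANP (0.933), GAPDH (0.932), COPG1 (0.928), AGPAT2 (0.921) and COX6A1 (0.917). Among the members themselves, which are part of that score, TPI1 had the highest r (0.922) and LDHA and LDHB the lowest (0.147 and 0.132). The mean z-score was lowest in W_Res replicate 3 (-0.999) and highest in PW_Res replicate 3 (0.869), each in resveratrol litters.

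Other glycolysis genes were taken from a list of 24, of which 16 are in the table and 14 were tested in the comparisons. In control litters none met the standard in limma, against 3.31% of all genes, and 2 had an unadjusted P under 0.05, against 17.7%, both higher. PFKL, the liver-type subunit of phosphofructokinase, which commits sugar to glycolysis, was 23.4, 25.8 and 21.8 FPKM in W_Con and 46.8, 42.1 and 42.9 FPKM in PW_Con. These groups lay far apart in relation to their spread, and the log2 fold change was 0.87 (SE 0.15, limma adjusted p = 0.117). In resveratrol litters PFKL was 41.8, 42.7 and 29.6 FPKM at 21 days and 35.8, 42.7 and 59.0 FPKM at 28 days, so that W_Con was the group with low values.

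In resveratrol litters 3 of the 14 genes tested from that list met the standard, 2 higher and 1 lower, against 4.75% of all genes. LDHD, a mitochondrial dehydrogenase of D-lactate, was 8.28, 12.2 and 24.8 FPKM in W_Res and 32.8, 33.3 and 61.4 FPKM in PW_Res. It rose by 1.51 on the log2 scale (SE 0.42, limma adjusted p = 0.311). In control litters LDHD was 18.5, 17.8 and 13.8 FPKM against 34.7, 37.1 and 19.9 FPKM, also without overlap, and its fold change averaged over both litter sets was 1.15 (adjusted p = 0.0807). LDHD and LDHA therefore had mean fold changes of opposite sign. PFKFB3, which makes an activator of phosphofructokinase, was 11.1, 19.0 and 3.29 FPKM against 44.4, 47.4 and 18.4 FPKM (log2 fold change 1.79, adjusted p = 0.337), and its groups overlapped. PFKFB2, an enzyme of the same family, was 0.563, 2.69 and 1.77 FPKM against 0.364, 0 and 0.116 FPKM (log2 fold change -1.13, adjusted p = 0.329).

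**Figure D5:**
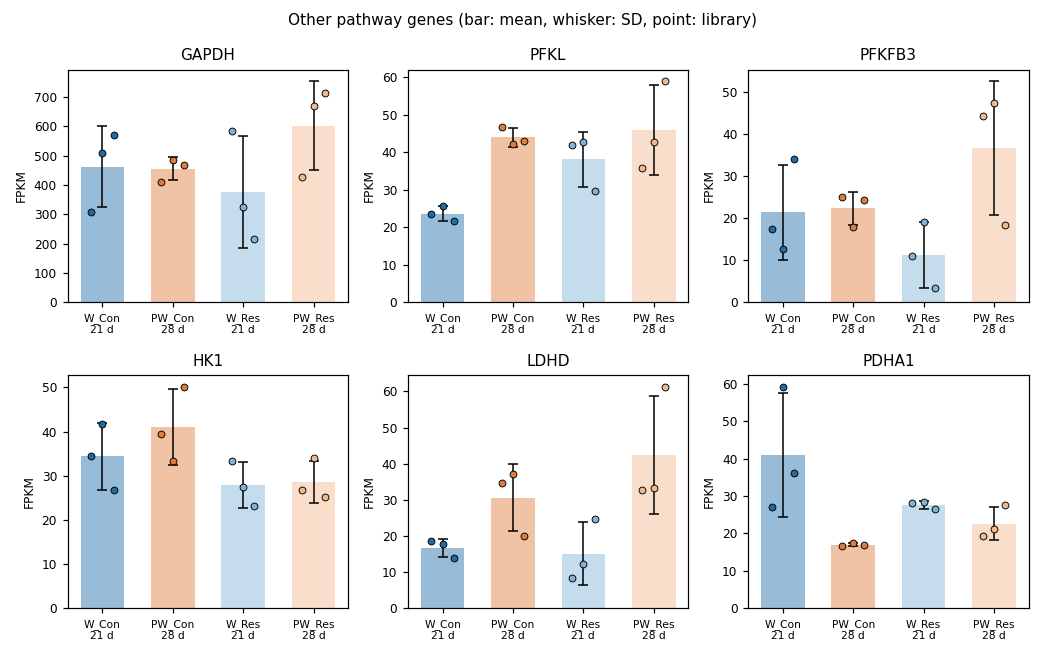
FPKM of GAPDH, PFKL, PFKFB3, HK1, LDHD and PDHA1 (y axis, from 0, a scale per gene) in the 4 groups (x axis), where points are libraries, bars are group means and whiskers are the SD of 3 libraries. PFKL lies at 21.8 to 25.8 FPKM in W_Con and at 29.6 to 59.0 FPKM in the other 3 groups, and PDHA1 is at 16.6 to 17.5 FPKM in PW_Con.

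Of 16 genes for the fate of pyruvate and the export of lactate, 13 are in the table and were tested. In control litters 1 met the standard, against 3.31% of all genes tested. An unadjusted P under 0.05 was found for 4, against 17.7% of genes, and 1 of them was higher. PDHA1, a subunit of the pyruvate dehydrogenase complex that feeds the citrate cycle, was 27.2, 59.3 and 36.2 FPKM in W_Con and 16.6, 17.5 and 17.0 FPKM in PW_Con. It fell by 1.15 on the log2 scale (SE 0.27, limma adjusted p = 0.135). In resveratrol litters PDHA1 was 28.1, 28.3 and 26.5 FPKM against 19.2, 21.0 and 27.5 FPKM, which overlap. None of the 13 met the standard there, against 4.75% of all genes, and 2 had an unadjusted P under 0.05, against 13.3%, both lower. Of 12 regulators of glycolysis, 8 are in the table, and none met the standard in either litter set. MYC, a transcription factor that drives growth, had the single unadjusted P under 0.05, in control litters, where 17.7% of all genes had one. Its log2 fold change there was 0.58 (limma adjusted p = 0.161).

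Some loci have no gene symbol but a glycolytic term in the table's gene ontology column, and 1 of them, chosen because it shares its activity with PGK1, is described here. ENSSSCG00000012439, annotated with phosphoglycerate kinase activity, was 162, 150.2 and 266 FPKM in W_Con and 84.3, 96.3 and 113 FPKM in PW_Con. Like PGK1, it had no overlap between these groups, with a log2 fold change of -0.93 (adjusted p = 0.157). In resveratrol litters it was 172, 149 and 74.2 FPKM at 21 days and 99.2, 173 and 232 FPKM at 28 days, which overlap, and its log2 fold change was 0.35. It met the standard for the difference between litter sets, at 1.29 (adjusted p = 0.325). Reads could be split between it and PGK1, and the sum of both had a log2 fold change of -0.84 in control litters (adjusted p = 0.165), a sum formed after the data were seen. No symbol was assigned to it.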

How the data were processed

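After trimming and alignment of the paired-end reads, the authors made the FPKM table through StringTie and Ballgown. TopHat is named in the paper, whereas the submitters' processing notes name HISAT2 2.0, StringTie 1.3.0 and Bowtie 0.12.2 with the builds Sscrofa10.2 and mm8. The deposited unit is FPKM, which holds no counts. No further scaling between libraries was stated, and 0 value columns were left unmatched.

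Loci sharing a gene name were summed, and 17650 loci without a name were left out. log2(FPKM + 1) was fitted with limma 3.58.1 (R 4.3.3, lmFit, eBayes with trend) over all genes whose mean reached 0.5 FPKM across the fitted libraries. P-values were two-sided and adjusted by Benjamini-Hochberg over all genes tested. The added 1 shrinks fold changes of low genes. The standard (unadjusted P under 0.05, log2 fold change beyond 1) follows the study. The control and resveratrol litters were fitted separately, and the mean effect and the interaction over 12 libraries. Correlations used 100000 permutations.

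All members were named, as were isoforms of their reactions at a mean of 0.5 FPKM or more, GAPDH, and listed genes that met the standard in a weaning comparison. PFKL, MYC, HK1 and the locus without a symbol, where that rule did not name them, were chosen after their values were seen. Members and lists were chosen with earlier results of these data known. The method was tested on simulated data. The primer sequences come from the study's supplement, and the qRT-PCR values were not used here. Results for 2 further genes are not reported here.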

Additional observations from a re-analysis of the deposited data

Results flagged for a closer look

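The difference of the weaning effect between litter sets in TPI1 was singled out because the interaction itself had an unadjusted P under 0.05. It was 0.89 on the log2 scale (limma, adjusted p = 0.337). TPI1 had a mean of 282 ± 71.5 FPKM in W_Con, 201 ± 28.5 FPKM in PW_Con, 209 ± 73.1 FPKM in W_Res and 272 ± 36.9 FPKM in PW_Res (SD, n = 3 each). The difference was 0.70 without W_Con replicate 3 and 0.71 without W_Res replicate 3, where the unadjusted P was above 0.05, and it was 0.02 in the Ballgown model. An unadjusted P under 0.05 was kept in 11 of 21 alternatives. It was the 1 member of 9 so found, against 13.7% of 12886 genes, and no gene had an adjusted p under 0.05 for this difference.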

How the results depend on the processing

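The alternatives covered the 6 counts of members at the standard, 2 isoform ratios and the members' fold changes. Depth was not varied, because FPKM hold no counts and the read totals given for the control libraries in the study's supplement were not used here. Leaving out a replicate moved the count of members at the standard between 0 and 2 in control litters (0 without W_Con replicate 3 or PW_Con replicate 1, 2 without W_Con replicate 1, LDHA and MPC2), between 0 and 2 in resveratrol litters (2 without W_Res replicate 1, 1 without PW_Res replicate 1), between 0 and 3 for the difference between litter sets (3 without W_Con replicate 1), and between 0 and 1 for the maternal diets at 21 days (1 without W_Con replicate 1 or W_Res replicate 1) and at 28 days (1 without PW_Res replicate 2). The count for the mean effect was 0 throughout. The isoform ratios kept their direction and stayed above an adjusted p of 0.05. The cause of these shifts was not tested.

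The Ballgown model with its library-size covariate gave 3 members at the standard in control litters and 1 in resveratrol litters. It reversed ENO1 (-0.060) and LDHB (-0.17) in control litters. In resveratrol litters it reversed LDHA (0.50), LDHB (0.33), PGK1 (-0.43), PGAM1 (-0.81), ENO1 (-0.031), TPI1 (-0.44), HK2 (-1.72) and MPC2 (-0.41). For the mean effect it reversed PGAM1 (-0.61), ENO1 (-0.032) and HK2 (-0.58), and for the difference PGAM1 (-0.41), ENO1 (-0.13) and HK2 (-1.20). Between maternal diets it reversed PGAM1 (0.34), ENO1 (0.18), TPI1 (0.24), HK2 (0.90) and MPC2 (0.59) at 21 days, and PGK1 (-0.028) and PGAM1 (-0.069) at 28 days. Median-of-ratios rescaling gave 1 member at the standard in resveratrol litters (ENO1) and 1 for the difference (TPI1), and reversed LDHA in resveratrol litters (0.049) and TPI1 for the mean effect (0.094). Quantile normalization reversed PGAM1 for the mean effect (-0.0011). Leaving out W_Res replicate 2 and W_Res replicate 3 together, which leaves W_Res replicate 1 alone and assumes that it varies like the other group, reversed LDHA (0.19), PGK1 (-0.18), PGAM1 (-0.44), TPI1 (-0.12) and HK2 (-0.51).

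Members whose fold change changed sign when a replicate was left out had these ranges. In control litters LDHB ranged from -0.032 to 2.26 and PKM from -0.051 to 0.21. In resveratrol litters LDHA ranged from -0.47 to 0.27, PGK1 from -0.14 to 0.55, PGAM1 from -0.10 to 0.78 and MPC2 from -0.070 to 0.84. For the mean effect LDHB ranged from -0.35 to 0.79, PGAM1 from -0.16 to 0.28, TPI1 from -0.11 to 0.11 and MPC2 from -0.45 to 0.030. For the difference HK2 ranged from -0.14 to 1.08. For the maternal diet at 21 days LDHA ranged from -0.42 to 0.034, LDHB from -0.14 to 2.16, PKM from -0.32 to 0.082, PGAM1 from -0.68 to 0.20 and ENO1 from -0.49 to 0.10.

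Counts over all genes at the standard moved with the pseudocount and the filter. In control litters 418 genes became 853 with a pseudocount of 0.1 and 227 with a minimum of 5 FPKM. In resveratrol litters 618 became 1163 and 245, 205 in the Ballgown model, 388 without W_Res replicate 2, 928 without W_Res replicate 3 and 1049 without W_Res replicate 1. For the mean effect 183 became 591 and 118. For the difference 1000 became 364 with a minimum of 5 FPKM, 315 in the Ballgown model and 633 without W_Con replicate 3. At 21 days 590 became 1008 and 248, 227 in the Ballgown model, and 896 and 944 without W_Res replicate 1 and W_Res replicate 3. At 28 days 224 became 488 and 122, 148 in the Ballgown model, and 426 without PW_Res replicate 1. The share of these genes that were higher at 28 days in resveratrol litters was 20.9%, and 44.6% after median-of-ratios rescaling.

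With a replicate block, 1 member met the standard for the difference between litter sets (MPC2, 1.18), and the other 5 member counts did not change. Libraries of the same number at the 2 ages deviated with correlations of -0.257 to 0.109 across genes, and 3 of 12 libraries correlated best with their own number, so the numbers were not taken as pairs.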
